A study of Mus musculus with 49 samples.

Results

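Mouse embryonic fibroblasts given OCT4, KLF4 and MYC with an empty vector (OKM+EV) were compared with fibroblasts given the empty vector alone (MEF2 EV), on 5 of the 49 arrays of the study. The 3 OKM+EV arrays and the 2 MEF2 EV arrays were chosen by their titles, and every gene with a value on all 5 was examined, which left 12026 genes. The study as a whole sought factors that stand in for OCT4 or SOX2 in reprogramming, and the labels name MEF2 EV as the reference for SOX2 substitutes. OKM+EV is the arm that lacks SOX2, against which OKM with SOX1, SOX2, SOX3 or GMNN was set.

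All 5 samples were labelled female, strain OGXICR, age D13.5 and skin. The fibroblasts were isolated from limb and tail skin after collagenase digestion and removal of the epidermis, so they were a mixed dermal population and not a clone. Both groups carried lentiviral vectors of a doxycycline-inducible system. The labels give neither the time in doxycycline nor the origin of each replicate, and p-values therefore reflect array-to-array spread, which may be technical and which so few arrays measure poorly.

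OCT4 and SOX2 bind DNA together and switch on the pluripotency network, while KLF4 is known to activate epithelial genes and MYC to drive growth. Fibroblasts that enter reprogramming are known to pass through a mesenchymal-to-epithelial transition, in which keratins, desmosomal proteins and claudins are switched on. Macrophages are resident in skin and are known to persist in primary fibroblast cultures, where they are marked by the receptor for colony-stimulating factor 1, by complement C1q and by scavenger receptors.

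The third OKM+EV array stood apart from the first and the second. On the log2 scale the Pearson correlation over 12026 genes was 0.986 between arrays 1 and 2, 0.844 between arrays 1 and 3, and 0.885 between arrays 2 and 3. The MEF2 EV arrays correlated at 0.976 with each other, and array 3 correlated with them at 0.843 and 0.848. Array 3 differed by more than 1 log2 unit from the mean of arrays 1 and 2 at 3805 genes, 2060 of them higher and 1745 lower. Arrays 1 and 2 differed that much at 56 genes and the MEF2 EV arrays at 213. Pairs of these arrays held equal values at 7 to 39 of the 12026 genes, the most between OKM+EV arrays 1 and 2.

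**Figure D1:**
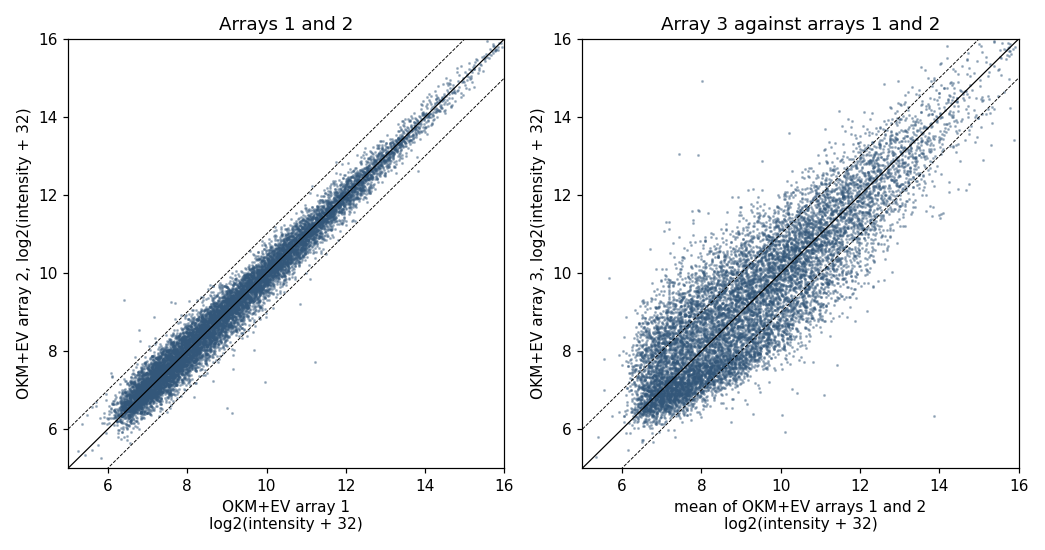
Each point is 1 of 12026 genes, as log2 of intensity plus 32. The left panel sets OKM+EV array 2 against array 1 and the right panel sets array 3 against the mean of arrays 1 and 2, with the solid line at equality and the dashed lines at 1 log2 unit. On the left 56 genes lie outside the dashed lines and on the right 3805.

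The genes that set array 3 apart were of several kinds. Adipoq, the adipocyte hormone adiponectin, read 158 and 127 on OKM+EV arrays 1 and 2 and 8372 on array 3, beside 7955 and 7426 on the MEF2 EV arrays. Array 3 was thus at the MEF2 EV level. Fabp4, the adipocyte fatty acid binding protein, was likewise at 86.8 and 144 on arrays 1 and 2, at 2517 on array 3 and at 1562 and 1942 in MEF2 EV. Foxa3, a forkhead factor of liver and gut, read 239 and 186 on arrays 1 and 2 and 8284 on array 3, against 163 and 228 in MEF2 EV, so there array 3 was high against both groups. Nr2e3, a nuclear receptor of photoreceptors, fell the other way, with 15827 and 13779.6 on arrays 1 and 2, 49.2 on array 3, and 7939.6 and 11048 in MEF2 EV. The complement genes C1qa, C1qb and C1qc were 3 of the 10 genes lowest on array 3 against arrays 1 and 2.

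Array 3 was also compared with the 44 arrays outside these 5, as a description, over the 8515 genes with a value on all 49 arrays. Its Spearman correlation was 0.781 with array 1 and 0.837 with array 2. It was highest with fibroblasts given CEBPa and SKM (SOX2, KLF4 and MYC), at 0.918 to 0.919, followed by HNF4a with SKM at 0.914 to 0.918 and GRB2 with SKM at 0.912 to 0.913. For arrays 1 and 2 the highest values were with OKM+SOX3, at 0.947 to 0.957 and 0.960 to 0.962. These points share a platform but not a normalization set. The source of the gap between array 3 and its group was not tested. Array 3 was kept under its label, and the total count and the counts of several lists are also given without it. Some genes said below not to pass did pass in limma without array 3. Among them were Cdh3 (adjusted p = 4.04e-07), Nfkb1 (2.30e-16), Cdkn1a (2.16e-05) and Trp63 (0.00132).

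The cells carried fibroblast markers in both groups. The mesenchymal filament gene Vim read 50915, 55098 and 49109 in OKM+EV and 51699.8 and 55487 in MEF2 EV, and the groups overlapped. Col1a2, a chain of type I collagen, read 7305, 9364 and 9548 against 7977 and 6755. The summed intensity of the 28 measured fibroblast genes ran from 277992 to 303694 in OKM+EV and from 271277 to 277270 in MEF2 EV. The median log2 difference of the list was -0.00, beside -0.01 over all genes.

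Of 12026 genes, 659 (5.48%) changed between OKM+EV and MEF2 EV at an adjusted p under 0.05 in limma's moderated test. OKM+EV was higher at 366 genes (3.04%) and lower at 293 (2.44%), and all but 3 of the 659 differed by at least 1 log2 unit. Without array 3 the count was 5585 (46.4%), with 2672 higher (22.2%) and 2913 lower (24.2%), and it included all 659 genes in the same direction, as the fits share 4 arrays. Leaving out OKM+EV array 1 or 2 left 430 or 225 genes. Leaving out MEF2 EV array 1 left 0 genes in limma, with 1424 at an unadjusted p under 0.05, and leaving out MEF2 EV array 2 left 2. A fit that took the spread from all 49 arrays called 4835 genes (40.2%). The groups did not overlap at 2459 genes higher in OKM+EV (20.4%) and 2378 lower (19.8%). "Rose" and "fell" below mean that a gene passed the threshold in the 5-array fit, where OKM+EV stands against MEF2 EV.

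Epithelial and keratinocyte genes were among the largest rises, with 4 of the first 12 on these lists. Of the 16 measured epithelial genes 9 rose and 0 fell, with a median log2 difference of 1.94. Of the 20 measured keratinocyte genes 9 rose and 0 fell, with a median of 1.72. The background over all genes was 3.04% rising and a median of -0.01. Without array 3 the counts were 13 and 16, against a background of 22.2%. The groups did not overlap, with OKM+EV higher, at 12 of the 16 and 15 of the 20, beside 20.4% of all genes. All arrays are bulk RNA, in which a change in the share of cells of a type and a change in RNA per cell cannot be told apart.

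Promoter windows of the keratinocyte genes that rose are shown for the AP-1 motif TGACTCA, since AP-1 factors are known regulators of the cornified envelope genes. The sequences are the 250 bases before the gene start from RefSeq (GRCm38.p6), printed 5′ to 3′ on the gene's strand, with motif letters on either strand in capitals. The small proline-rich protein gene Sprr1a lies at chr3:92485882-92486131 on the minus strand and holds 2 matches. The loricrin gene Lor lies at chr3:92083143-92083392, also on the minus strand, and holds 1.
Sprr1a: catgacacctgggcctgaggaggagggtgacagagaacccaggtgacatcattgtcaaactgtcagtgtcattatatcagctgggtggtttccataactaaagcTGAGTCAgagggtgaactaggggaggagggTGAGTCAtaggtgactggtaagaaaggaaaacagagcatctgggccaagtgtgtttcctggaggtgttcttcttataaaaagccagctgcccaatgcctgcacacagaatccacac
Lor: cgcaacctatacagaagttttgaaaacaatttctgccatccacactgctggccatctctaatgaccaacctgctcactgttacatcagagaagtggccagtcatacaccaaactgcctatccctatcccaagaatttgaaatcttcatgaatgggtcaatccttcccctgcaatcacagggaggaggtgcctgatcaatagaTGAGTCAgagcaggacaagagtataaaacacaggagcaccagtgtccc
The matches in Sprr1a begin 146 and 116 bases before the gene start, and the match in Lor 48 bases before it. In windows of 300 bases, 250 before and 50 after the start, the motif was present at 3 of the 6 risen keratinocyte genes with a window, namely Lor, Sbsn and Sprr1a, and at 1 of the 7 risen epithelial genes. It was also present at 4 of the 18 fallen macrophage genes with a window (22.2%). It was present at 8.27% of the risen genes (23 of 278), 4.57% of the fallen genes (10 of 219), 4.91% of all tested genes with a window and 5.95% of all RefSeq genes with one. A match is a match of letters only.

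Among the simple epithelial genes, Krt8, a keratin of simple epithelia, read 10917, 11631 and 6711 in OKM+EV and 80.4 and 46.4 in MEF2 EV (log2 difference 6.66, SE 0.37, adjusted p = 0.000824). It was the largest rise under the naming rule, and all 3 OKM+EV arrays lay far above both controls. Krt19, another keratin of this kind, read 7227, 6649.8 and 3918 against 668 and 507 (3.23, adjusted p = 0.00428). Dsp, the desmosomal protein desmoplakin, read 5266, 4921 and 2502 against 292 and 386 (3.46, adjusted p = 0.00527). For each of the 3 genes array 3 was the lowest OKM+EV array but stayed above both MEF2 EV arrays.

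The matriptase gene St14 and its inhibitor genes Spint1 and Spint2 moved in the same direction. St14, the membrane serine protease matriptase, read 685, 869.6 and 720.1 in OKM+EV and 109.8 and 93.6 in MEF2 EV (2.56, adjusted p = 0.00882). Its inhibitors Spint1 and Spint2 read 384, 435 and 850.3 against 28.5 and 65.8 (2.85, adjusted p = 0.0152), and 2865, 3236 and 4319 against 742 and 397 (2.58, adjusted p = 0.0107). Cdh3, P-cadherin, did not follow array by array. It read 6048, 6329 and 873 in OKM+EV and 2143 and 2086 in MEF2 EV, with array 3 below both controls, and it did not pass the test (0.61, adjusted p = 0.718).

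Keratins of stratified and activated epidermis rose in part, with Krt14, Krt17, Krt16 and Krt6b past the threshold and Krt1, Krt5, Krt6a and Krt10 not. Krt14, the keratin of basal keratinocytes, read 32414, 30271 and 11531 in OKM+EV and 737 and 605 in MEF2 EV (5.01, SE 0.47, adjusted p = 0.00273). Krt17, a keratin of hair follicles and wounded skin, read 22127, 21616 and 12702 against 156 and 175 (6.53, SE 0.33, adjusted p = 0.000824). Krt16, induced with Krt17 in hyperproliferative epidermis, read 1781, 1580.4 and 991 against 177 and 94.8 (3.14, adjusted p = 0.00882). The partner keratin of Krt14, Krt5, did not pass, with 338, 296 and 287 against 250.4 and 249 (0.26, adjusted p = 0.694). Trp63, which encodes the basal keratinocyte regulator p63, read 406, 363 and 484 against 159 and 166, did not overlap between the groups and did not pass (1.20, adjusted p = 0.090). Krt10, a keratin of differentiating layers, read 1347, 1258 and 1253 against 1128 and 984 (0.28, adjusted p = 0.632).

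Among genes of late keratinocyte differentiation some rose and some did not pass. Of the keratinocyte list, Sprr1a, Lor and Sbsn rose, and Ivl (log2 difference 1.42), Krt1 (1.36), Lce1b (1.33), Sprr1b (1.14), Cnfn (0.01) and Flg (-0.26) did not pass, with adjusted p of 0.0579 to 0.997. Sprr1a, whose promoter is printed above, read 6357, 6351 and 3541 in OKM+EV and 374 and 215 in MEF2 EV (4.06, adjusted p = 0.00321). Lor read 562, 628 and 913 against 111 and 92.4 (2.43, adjusted p = 0.0142), and Sbsn, the secreted epidermal protein suprabasin, read 2995, 2931 and 3160.2 against 317 and 315 (3.14, adjusted p = 0.00250). Asprv1, the epidermal protease that processes filaggrin, read 3940.4, 3989 and 5564 against 174 and 109 (4.71, adjusted p = 0.00176). For Lor, Sbsn and Asprv1 array 3 was the highest of the OKM+EV arrays, unlike for Krt8, Krt14, Krt16, Krt17 and Krt19. Lgals7, the keratinocyte lectin galectin-7, read 4727, 5539 and 6243 against 136 and 108 (5.17, adjusted p = 0.000961). Sfn, the epithelial 14-3-3 protein sigma, read 2664, 2632 and 5325 against 157 and 267 (3.83, adjusted p = 0.00462).

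**Figure D2:**
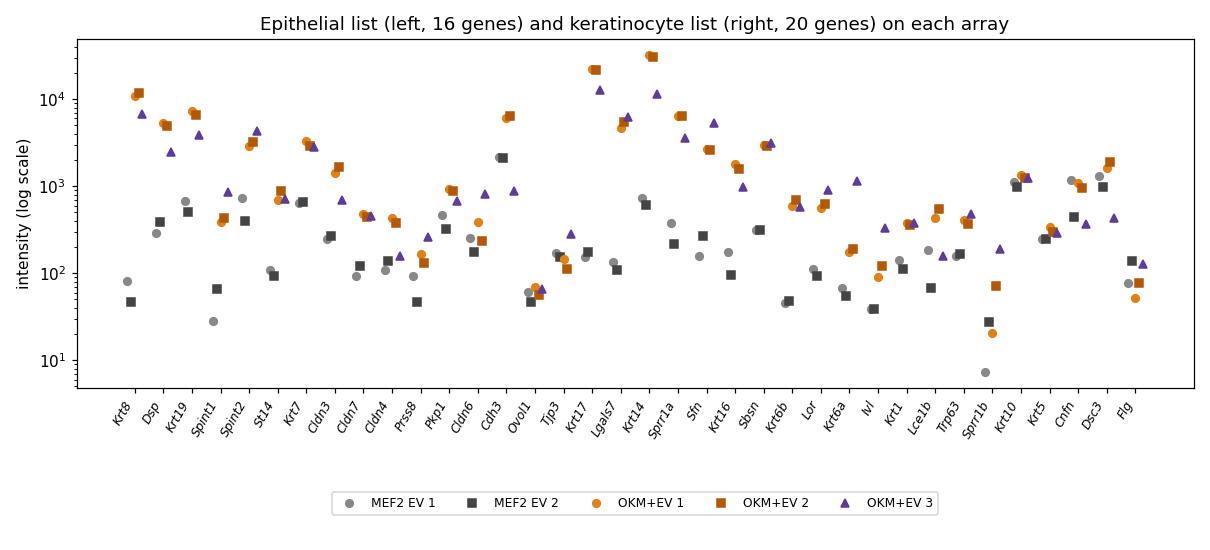
Each column is a gene and each point 1 array, with intensity on a log axis. The left 16 genes are the epithelial list and the right 20 the keratinocyte list, each in order of the log2 difference between OKM+EV and MEF2 EV. Krt8 lies at 6711 to 11631 on the OKM+EV arrays and at 46.4 and 80.4 in MEF2 EV, and Cdh3 on array 3 lies below both controls.

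The remaining large rises were of mixed kinds. Fgfbp1, a secreted carrier of fibroblast growth factors, read 10204, 11252 and 8657 in OKM+EV and 67.4 and 66.6 in MEF2 EV (6.66, SE 0.29, adjusted p = 0.000584). S100a14, an epithelial calcium-binding protein, read 2120.4, 3149.6 and 4349 against 59 and 39 (5.27, adjusted p = 0.00181). Both were dim in MEF2 EV, as were Krt8 above and 2610528A11Rik, Sptssb and Fetub below. The size of these log2 differences, and so their order, depends on the value of 32 added before the logarithm. The rest of the 12 largest rises were 2610528A11Rik (5.18), Sptssb, a subunit of the enzyme that starts sphingolipid synthesis (4.73), Fetub, the protease inhibitor fetuin-B (4.62), Nefm (4.60) and Urah, an enzyme of urate breakdown (4.56), where values are log2 differences, and Krt8, Krt17, Krt14, Lgals7 and Asprv1 above.

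Nefm, the medium neurofilament chain, was the leading gene of the neuronal list, of which 3 of 10 measured members rose and 0 fell. It read 9526, 9466 and 19481 in OKM+EV and 527 and 411 in MEF2 EV (SE 0.38, adjusted p = 0.00188). Nefl, the light chain, read 568, 468 and 1357 against 86.6 and 72.6 (2.75, adjusted p = 0.025), and Stmn2, a microtubule regulator of growing axons, read 2175, 2089.8 and 1062 against 405 and 436 (1.93, adjusted p = 0.0401). The median of the list was 0.48, and the other 7 members did not pass. Over all genes the median was -0.01, and 3.04% rose and 2.44% fell. Without array 3, 6 of the 10 members rose and 0 fell, beside 22.2% and 24.2% of all genes.

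Macrophage genes made up 8 of the 12 largest falls. Of 50 listed genes 34 had a value on the 5 arrays, 7 had a named probe without a value and 9 had no named probe. Of the 34, 28 fell and 0 rose, against a background of 2.44% falling, and the median log2 difference was -4.29. In 33 of the 34 both MEF2 EV arrays lay above all 3 OKM+EV arrays, beside 19.8% of all genes. Without array 3, 33 fell and 1 rose (median -3.72), beside 24.2% and 22.2% of all genes. With 1 MEF2 EV array left out, 0 of the 34 passed in limma, as did at most 2 of all genes, while each MEF2 EV array held the genes high on its own, as the values below show.

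Several receptors of the macrophage surface fell. Marco, a scavenger receptor, read 420.4, 411 and 78 in OKM+EV and 36187 and 36651 in MEF2 EV (log2 difference -7.02, SE 0.62, adjusted p = 0.00239). Csf1r, the receptor for colony-stimulating factor 1 that macrophages need to survive, read 179, 149 and 184 against 12385 and 9843 (-5.78, SE 0.31, adjusted p = 0.000824). Adgre1, which encodes the F4/80 antigen, read 93, 116 and 56.4 against 8008 and 7000.0 (-6.00, SE 0.37, adjusted p = 0.000961). For these 3 genes no array overlapped, and the lowest MEF2 EV value was 7000.0 and the highest OKM+EV value 420.4. Fcgr3, an IgG Fc receptor, read 754, 859 and 115 against 26171 and 22127 (-5.68, adjusted p = 0.00834). The mannose receptor Mrc1 read 655, 592 and 114 against 6854 and 12557 (-4.55, adjusted p = 0.014).

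The complement genes showed where array 3 mattered. C1qa read 1373, 1288 and 89.6 in OKM+EV and 34229 and 51699.8 in MEF2 EV (-6.11, SE 1.01, adjusted p = 0.0177). C1qc read 1304, 1135 and 97.8 against 13838 and 12154 (-4.47, SE 0.95, adjusted p = 0.042). C1qb read 1083, 1049 and 29.2 against 13431 and 12992, and its adjusted p was 0.0593 although no array overlapped. Without array 3 the log2 difference of C1qb was -3.59 (adjusted p = 5.87e-16). Array 3 minus the mean of arrays 1 and 2 was -3.27 to -4.17 log2 units for the 3 genes, so the wide spread within OKM+EV lay on the side away from MEF2 EV.

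Lysosomal and cytoskeletal genes of phagocytes fell too. Cd68, a lysosomal membrane protein, read 2372, 2368 and 305 in OKM+EV and 18603 and 14392 in MEF2 EV (-3.72, adjusted p = 0.0488). Laptm5, another lysosomal protein of blood cells, read 1087, 1219 and 939 against 14090.0 and 17309 (-3.82, adjusted p = 0.00175). Mpeg1, a pore-forming protein of phagosomes, was higher on array 3 than on OKM+EV arrays 1 and 2, as were Csf1r and Cd180 by small amounts (0.14 and 0.07 log2 units above the mean of arrays 1 and 2), and read 12.4, 50.4 and 205 against 3899 and 4972 (-5.54, adjusted p = 0.00646). Rac2, the blood-cell GTPase of the phagocyte oxidase, read 144, 136 and 95 against 4634 and 4494 (-4.88, adjusted p = 0.00175). Aif1, an actin-bundling protein of macrophages, read 109, 80.2 and 66.4 against 2336 and 1502 (-4.04, adjusted p = 0.00282).

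The 6 members that did not pass included C1qb. Cd14, the lipopolysaccharide co-receptor, read 715, 707 and 289 in OKM+EV and 1764 and 1895 in MEF2 EV (-1.73, adjusted p = 0.0751). Ptprc, which encodes the pan-leukocyte antigen CD45, read 296, 198 and 139.8 against 727 and 531 (-1.48, adjusted p = 0.0878). The chemokine genes Ccl3 (-2.32, adjusted p = 0.110) and Ccl6 (-1.77, adjusted p = 0.225) also lay lower in OKM+EV on every array. Lcp1, an actin bundler that blood cells share with many transformed cells, was the exception to the direction, with 2127, 2609 and 868 against 1574 and 1151 (0.32, adjusted p = 0.755). It was also the member that rose without array 3.

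**Figure D3:**
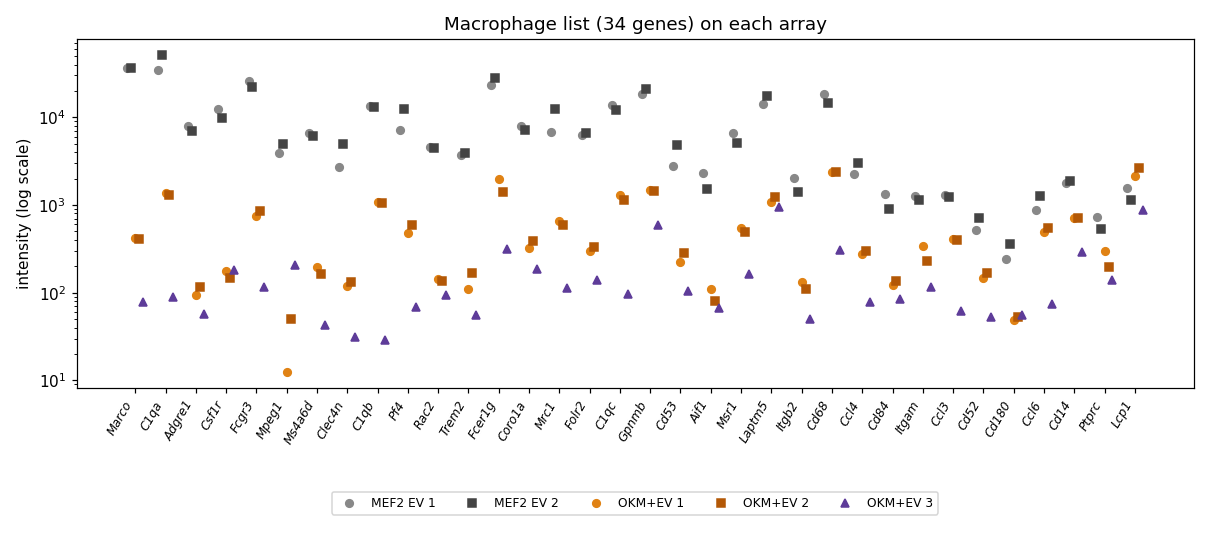
Each column is 1 of the 34 measured macrophage genes and each point 1 array, with intensity on a log axis and genes in order of the log2 difference. The MEF2 EV arrays lie above all 3 OKM+EV arrays for 33 genes, and Lcp1 at the right end is the exception. Array 3 lies below OKM+EV arrays 1 and 2 for most of the genes.

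The summed intensity of the 34 genes was 20451.6, 20302.4 and 5951.5 in OKM+EV and 294100 and 321529 in MEF2 EV. This is 0.0962%, 0.0955% and 0.0278% of the summed intensity of all 12026 genes in OKM+EV and 1.37% and 1.50% in MEF2 EV. Of the 14 defining markers 12 were measured, and their lowest value in MEF2 EV was 531. Their values in OKM+EV ran from 29.2 to 2372. Lists of other blood cells held few calls. Among the 7 measured T, B and NK cell genes 0 rose and 0 fell, with a median of 0.03. Among the 8 mast cell and neutrophil genes only Camp, an antimicrobial peptide of granules, fell (-2.04, adjusted p = 0.0166). Over all genes 3.04% rose and 2.44% fell.

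Outside the list, Slc11a1, the phagosomal metal transporter, read 125, 134 and 74.4 in OKM+EV and 7214 and 7142 in MEF2 EV (-5.68, adjusted p = 0.000961). The C-type lectin gene Clec4d read 135, 165 and 40.4 against 5311 and 5363 (-5.33, adjusted p = 0.00270), and Hk3, the hexokinase of myeloid cells, read 117, 112 and 63.8 against 2898 and 4919 (-4.91, adjusted p = 0.00190). Sstr5, a somatostatin receptor that was on none of the lists, read 387, 324 and 158 against 14477 and 11240.0 (-5.39, adjusted p = 0.00181). Clec4n and Ms4a6d, both on the macrophage list, completed the 12 with log2 differences of -4.99 and -5.40.

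A motif of PU.1, the ETS factor that macrophage genes are known to need, was searched as GAGGAAGT on both strands, a choice made after the macrophage genes were seen to fall. It was present in the 300-base window of 10.5% of the fallen genes (23 of 219), 2.52% of the risen genes (7 of 278), 3.42% of all tested genes and 3.69% of all RefSeq genes with a window. Among the 18 fallen macrophage genes with a window it was present at 3 (16.7%), namely C1qc, Cd53 and Pf4. The 250 bases before the start of C1qc are shown as the example with the match upstream, from RefSeq (GRCm38.p6, chr4:136892915-136893164, minus strand), with the match, on the opposite strand, in capitals.
C1qc: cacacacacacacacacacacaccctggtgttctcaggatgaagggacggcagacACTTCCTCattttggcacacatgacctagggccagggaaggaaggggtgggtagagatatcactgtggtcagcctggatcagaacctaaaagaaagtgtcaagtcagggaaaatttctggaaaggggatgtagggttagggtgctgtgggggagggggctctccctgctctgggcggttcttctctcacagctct
The match begins 195 bases before the gene start, and no binding was measured at it.

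To place the MEF2 EV level among the other groups, the 14 macrophage genes with a value on all 49 arrays were summed. The sum was 164905 and 185642 in MEF2 EV and 4182 to 12484 in OKM+EV. In groups whose arrays were scaled apart, it was 12593 to 13898 in the uninfected fibroblasts, 5242 to 6176 in MEF1 EV (the empty-vector reference of the SKM arm), 27437 to 27590 in OKM+GMNN, 15497 to 15804 in OKM+SOX1, 14711 to 16556 in OKM+SOX3 and 5731 to 5937 in OKM+SOX2. No test was made across these sets, since set and group cannot be told apart. Within that limit, the MEF2 EV arrays were the highest of the 49 and the uninfected and MEF1 fibroblasts were not near them. The arrays with the high macrophage genes are the controls of every comparison described here, and the part of these genes in the other differences was not tested.

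The adipocyte genes named in this report were lower in OKM+EV arrays 1 and 2 than in MEF2 EV. Array 3 lay in between for Plin1, Adig and Lpl and above both controls for Adipoq and Fabp4. Of 9 measured genes 2 fell and 0 rose, beside 2.44% and 3.04% of all genes. Without array 3 the count was 7 fallen and 1 risen, beside 24.2% and 22.2% of all genes. Plin1, perilipin of the lipid droplet, read 281, 236 and 945 in OKM+EV and 6476 and 6896 in MEF2 EV (-3.95, adjusted p = 0.0109). Adig, adipogenin, read 87.8, 66.2 and 131 against 378 and 469.8 (-1.87, adjusted p = 0.0248). Lpl, lipoprotein lipase, which macrophages share with adipocytes, read 10857, 10972 and 24430.0 against 38611 and 50915 and did not pass (-1.63, adjusted p = 0.060). For Adipoq, given above, the log2 difference was -3.61 with all arrays (adjusted p = 0.242) and -5.47 without array 3 (adjusted p = 4.81e-19).

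Of 14 measured pluripotency genes 3 rose and 0 fell, with a median of 0.31, beside 3.04% of all genes rising and a median of -0.01. Fbxo15, an OCT4 and SOX2 target, read 627, 823 and 3111 in OKM+EV and 38 and 52.9 in MEF2 EV (3.97, adjusted p = 0.0191). Fgf4, a growth factor of the inner cell mass, read 428, 430.5 and 1414 against 71.8 and 81.2 (2.64, adjusted p = 0.0425), and Tdgf1, the NODAL co-receptor Cripto, read 528, 457 and 312 against 57.6 and 43.2 (2.47, adjusted p = 0.0103). Array 3 was the highest OKM+EV array for Fbxo15 and Fgf4 and the lowest for Tdgf1. In the germline list 2 of 8 measured genes rose and 0 fell. Piwil2, a PIWI protein of germ cells, read 922, 1027 and 951 against 123 and 132 (2.64, adjusted p = 0.00711), and the X-linked homeobox gene Rhox5 read 799, 797 and 1101 against 109.8 and 189.6 (2.38, adjusted p = 0.0166). None of the 9 primed epiblast, 11 mesendoderm and 14 ectoderm genes measured passed in the 5-array fit. Without array 3, 5 of the 14 pluripotency genes rose and 2 fell, and 4 of the 8 germline genes rose and 0 fell. In that fit 5 mesendoderm genes rose and 1 fell, 3 ectoderm genes rose and 1 fell, and 2 primed epiblast genes rose and 2 fell. Over all genes 22.2% rose and 24.2% fell without array 3.

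None of the 5 factor genes with a value passed. Pou5f1, which encodes OCT4, read 61.8, 56 and 255 in OKM+EV and 99.8 and 89.6 in MEF2 EV (0.07, adjusted p = 0.952), and its log2 difference without array 3 was -0.48 (adjusted p = 0.0694). Klf4 read 428, 794 and 831 against 774 and 853 (-0.29, adjusted p = 0.722). The probes may lie outside the introduced sequences, so they say nothing of the infection.

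Of 21 measured inflammatory genes 5 rose and 1 fell, with a median of 0.54, beside 3.04% and 2.44% of all genes. Without array 3 the counts were 13 and 1, beside 22.2% and 24.2%. The neutrophil chemokine Cxcl5 read 1240.5, 1683 and 3218 in OKM+EV and 155 and 126 in MEF2 EV (3.48, adjusted p = 0.0085). Lcn2, the iron-scavenging lipocalin, read 1109.7, 1331 and 1819 against 111 and 151 (3.13, adjusted p = 0.00593), and Ptgs2, cyclooxygenase-2, read 185, 289 and 276 against 19.4 and 32.4 (2.27, adjusted p = 0.00721). Mmp9, a gelatinase that macrophages also make, was the gene that fell, with 227, 295 and 252 against 1539.6 and 1568 (-2.46, adjusted p = 0.00924). Nfkb1 read 7519.6, 6767 and 1018 against 401 and 289.6, with array 3 far below the other OKM+EV arrays, and did not pass (3.34, adjusted p = 0.0643). In the interferon response list 1 of 25 genes rose and 0 fell, namely Isg20, an RNA exonuclease (2.05, adjusted p = 0.0165). The median of the list was 0.75 with all arrays and 0.52 without array 3. Without array 3, 11 of the 25 rose and 4 fell, beside 22.2% and 24.2% of all genes. Isg15, a ubiquitin-like interferon target, and Usp18, its protease, were high on array 3 alone, at 2919.6 and 912 against at most 312 and 22 on the other 4 arrays.

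In the list of p53 targets and senescence genes 3 of 19 rose and 1 fell, beside 3.04% and 2.44% of all genes. The median was 0.94, beside -0.01 over all genes. Without array 3, 11 of the 19 rose and 3 fell, beside 22.2% and 24.2% of all genes. Perp, a desmosomal p53 and p63 target, read 10869, 12029 and 9576 in OKM+EV and 1561 and 2282 in MEF2 EV (2.49, adjusted p = 0.00429). The stress genes Gadd45a (2.20, adjusted p = 0.00977) and Gadd45b (1.64, adjusted p = 0.0433) rose and Sesn1, a sestrin, fell (-1.63, adjusted p = 0.0131). The cell-cycle inhibitor gene Cdkn1a read 38611, 38205 and 33784 against 22013 and 16449, and Cdkn2a read 269, 335 and 586 against 126 and 156. Both were higher on every OKM+EV array and neither passed (0.95, adjusted p = 0.0591, and 1.25, adjusted p = 0.137).

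Among 19 imprinted genes 2 rose and 1 fell, beside 3.04% and 2.44% of all genes. Without array 3, 3 of the 19 rose and 5 fell, beside 22.2% and 24.2% of all genes. Phlda2, a placental growth restrainer, read 1988, 1512 and 889 in OKM+EV and 66.4 and 96.6 in MEF2 EV (3.66, adjusted p = 0.00601), and the zinc finger gene Peg3 read 3272, 2484 and 2119 against 473 and 717 (2.09, adjusted p = 0.0173). Cdkn1c, the inhibitor p57, read 14005, 14598 and 17351 against 57377 and 53650.2 (-1.86, adjusted p = 0.00499). Phlda2 and Cdkn1c are neighbours in 1 imprinted domain and went in opposite directions. Dlk1 and Mest lay lower in OKM+EV on every array and did not pass (-1.62, adjusted p = 0.058, and -1.54, adjusted p = 0.060).

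Fibroblast genes did not fall as a group. Of 28 measured genes 2 rose, Col5a2, a chain of type V collagen (1.59, adjusted p = 0.0259), and Zeb1, a repressor of epithelial genes (1.40, adjusted p = 0.028), and 0 fell. Zeb1 read 4724, 4603 and 4106 in OKM+EV and 1495 and 1886 in MEF2 EV, so it rose in the same arrays as the keratins. Its paralogue Zeb2 read 52.2, 71.6 and 164 against 326 and 378 and did not pass (-1.68, adjusted p = 0.0622), and Snai2, another such repressor, read 2325, 2241 and 1736 against 918 and 763 (1.28, adjusted p = 0.0575). The backgrounds with all arrays were 3.04% rising and 2.44% falling. Without array 3, 8 of the 28 rose and 6 fell, against backgrounds of 22.2% and 24.2%. Pdgfra, the fibroblast receptor for platelet-derived growth factor, was high on array 3 alone, at 7438 against 709.8 and 712 on arrays 1 and 2 and 421 and 446 in MEF2 EV.

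Of 30 collagen and matrix enzyme genes 3 rose and 1 fell, beside 3.04% and 2.44% of all genes. The median of the list was -0.04, beside -0.01 over all genes. Without array 3, 6 of the 30 rose and 8 fell, beside 22.2% and 24.2% of all genes. Tnc, the wound and tumour matrix protein tenascin-C, read 10332, 10332 and 4667 in OKM+EV and 1436 and 1293 in MEF2 EV (2.51, adjusted p = 0.0158). Loxl2, a collagen cross-linker, read 26171, 25657 and 26082 against 13515 and 12083 (1.02, adjusted p = 0.0358). Col14a1, a fibril-associated collagen, read 1201, 1004 and 600.1 against 7305 and 10888 (-3.27, adjusted p = 0.00509). Of 24 Hox genes 1 rose and 0 fell, near the shares of all genes. The gene was Hoxa10, a posterior limb patterning gene, at 1835, 1548 and 781 against 242 and 250.4 (2.27, adjusted p = 0.0305). Without array 3, 6 of the 24 rose and 2 fell.

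Growth and metabolism lists are read against all genes, of which 2.44% fell and 3.04% rose with all arrays, and 24.2% fell and 22.2% rose without array 3. None of the 22 DNA replication genes passed with all arrays, while 14 fell and 0 rose without array 3 (median -0.52 and -0.86). Uhrf1, a maintenance factor of DNA methylation in S phase, read 141 and 189 on OKM+EV arrays 1 and 2 and 509 on array 3, equal to 509 and 509 in MEF2 EV. None of the 21 mitosis, 12 glycolysis, 15 cholesterol synthesis, 18 TGF-beta and actin and 19 ER stress genes passed with all arrays. Without array 3, 12 of the 19 ER stress genes fell and 1 rose, and 8 of the 21 mitosis genes rose and 3 fell. In that fit 7 of the 18 TGF-beta and actin genes rose and 4 fell. Of the cholesterol synthesis genes 4 rose and 2 fell, and of the glycolysis genes 0 rose and 2 fell. Of 15 MYC targets in ribosome and nucleotide synthesis 1 rose with all arrays, Gart, a purine synthesis enzyme (2.07, adjusted p = 0.0166). Without array 3, 4 of the 15 rose and 0 fell. Of 13 oxidative response genes Gsta4, a glutathione transferase, rose with all arrays (3.13, adjusted p = 0.00731), and Prdx1 (-1.99, adjusted p = 0.0401) and Pgd (-1.75, adjusted p = 0.0431) fell. Without array 3, 2 of the 13 rose and 7 fell. With all arrays none of the measured neural crest, skeletal muscle or smooth muscle genes passed. Among 13 endothelial genes Ramp2, an adrenomedullin co-receptor, fell (-2.64, adjusted p = 0.0176), and among 10 chondrocyte and osteoblast genes Col11a1 rose (2.14, adjusted p = 0.0152).

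**Figure D4:**
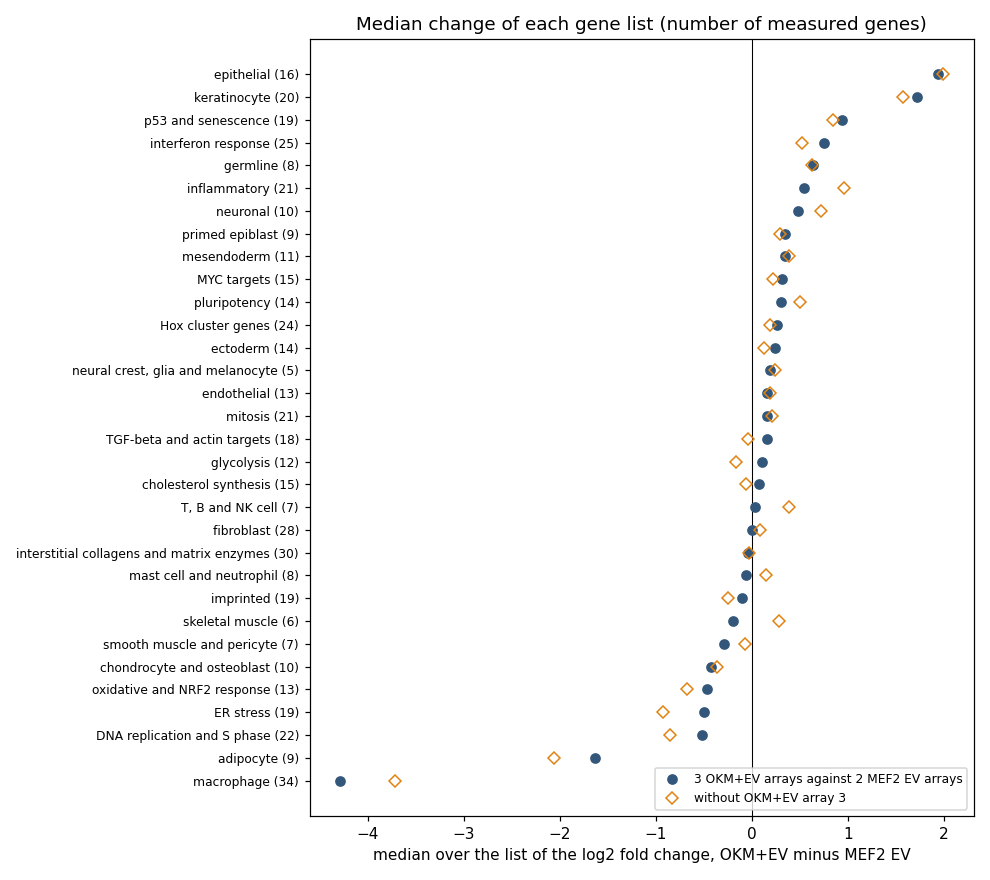
The median over each list of the log2 difference between OKM+EV and MEF2 EV, for lists with at least 5 measured genes, whose number is in brackets. Filled circles use all 5 arrays and open diamonds leave out OKM+EV array 3. The macrophage list is the lowest, at -4.29, and the epithelial list the highest, at 1.94.

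The same contrast was made in the other arm of the study, where SKM with the empty vector (SKM+EV, 2 arrays) stands against MEF1 EV (2 arrays). No array is shared between the arms, and each difference was taken within its own set of arrays. Over 9358 genes with a value on all 9 arrays the log2 differences of the 2 arms differed at 189 genes (2.02%) in limma, with OKM+EV higher at 72 (0.769%) and lower at 117 (1.25%). Without OKM+EV array 3 the count was 2538, and without each of the other 8 arrays it was 34 to 132.

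The keratins were bright with the factors and dim without them in both arms, and their differences between the arms did not pass the test. Krt8 read 5807 and 10309 in SKM+EV and 35.3 and 40.7 in MEF1 EV, a log2 difference of 6.80, and the OKM arm differed from it by -0.13 (SE 0.53, adjusted p = 0.932). Krt17 read 13691 and 21386 against 126 and 95.5, and its difference between the arms was -0.38 (SE 0.47, adjusted p = 0.763). Krt14 read 51161 and 46556 against 1091 and 1389, with a difference between the arms of -0.27 (SE 0.60, adjusted p = 0.886). With 9 arrays such a p does not show that the arms act alike.

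The macrophage genes differed between the arms. Of 17 with a value on all 9 arrays 11 were called, all lower in the OKM arm, beside 1.25% of all genes. Csf1r read 148 and 138 in SKM+EV and 150.0 and 155 in MEF1 EV, so the SKM arm showed a log2 difference of -0.07 and the arms differed by -5.70 (adjusted p = 0.000787). Among the 4 groups MEF2 EV alone read above 184, though the arms were scaled apart. Nefm was the gene that differed most in the other direction. It read 362 and 429 in SKM+EV and 1317 and 1386 in MEF1 EV, lower with the SKM factors where it was higher with OKM, and the arms differed by 6.30 (adjusted p = 0.00142).

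**Figure D5:**
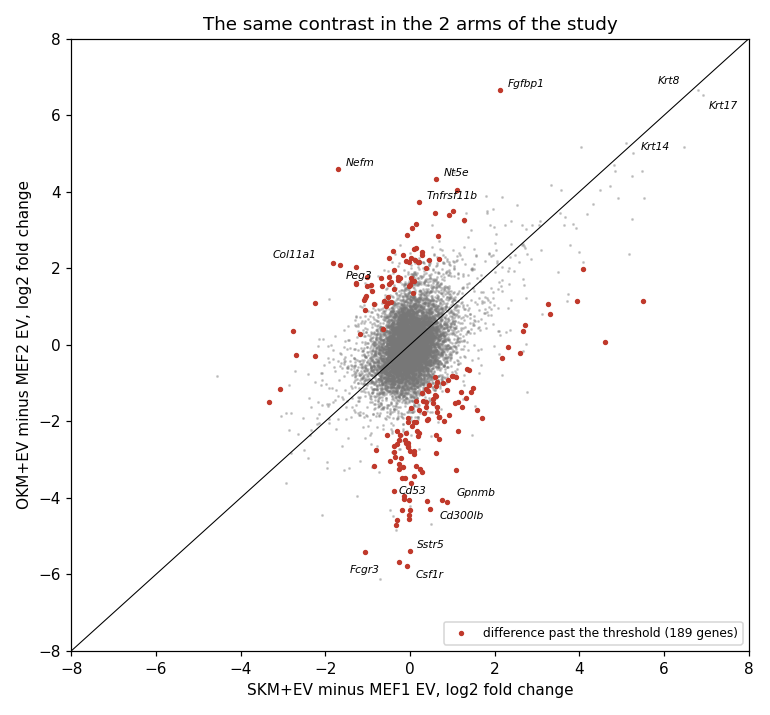
Each point is 1 of 9358 genes, with the log2 difference of SKM+EV from MEF1 EV on the horizontal axis and of OKM+EV from MEF2 EV on the vertical axis. Red points mark the 189 genes whose log2 differences differed between the arms at an adjusted p under 0.05, and the line marks equality. Krt8, Krt17 and Krt14 lie near the line, and Csf1r and Nefm lie far from it.

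Some of the named genes were also followed in the OKM groups with a further factor, on arrays scaled apart from these 5 and with no test. Krt8 ran from 6048 to 8679 over OKM+SOX2, OKM+SOX1 and OKM+SOX3 and from 12814 to 13648 in OKM+GMNN. Lgals7 ran from 2937 to 8692 in OKM+SOX1, OKM+SOX3 and OKM+GMNN, but the OKM+SOX2 arrays lay apart, at 95.4 and 4366. Marco, the largest fall, read 57 to 98 in OKM+SOX2, 478 to 594 in OKM+SOX3, 980 to 1006 in OKM+SOX1 and 2250 to 2366 in OKM+GMNN.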

How the data were processed

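The deposited values are linear intensity values, 1 per probe and array, of one-colour Cy5 arrays. The labels name no software, background correction or normalization. The 5 arrays share 1 distribution of values, which differs from that of the other arrays. Depth does not apply to arrays, whose number limits the precision.

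Of 19426 probes, 15539 carried 1 gene symbol, updated through RefSeq, and 15506 had a value on the 5 arrays. The probe with the highest mean stood for each gene with several probes (972 of 12026 genes). Values were taken as log2(intensity + 32), and group means over the 5 arrays were fitted with limma 3.58.1 (R 4.3.3), an intensity trend, two-sided tests and Benjamini-Hochberg adjustment over 12026 genes. The difference between the arms was a contrast of contrasts over 9 arrays. Tested on simulated OKM+EV and MEF2 EV arrays in which 200 of 12026 genes had been changed, the fit recovered 11.2% of changes of 1 log2 unit, 73.6% of 2 and 98.4% of 3.

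The members, lists and tests were chosen with earlier results of these data known. The rule named the 12 largest rises and falls past the threshold without overlap and with the brighter mean above the median, the 10 genes highest and lowest on array 3 with arrays 1 and 2 within 0.5, every macrophage and factor gene, up to 6 passing members of each other list, and 6 genes in each direction for the difference between the arms. Fabp4, Lpl, Nfkb1, Snai2, Lor, Sbsn, Krt1, Krt5, Krt10, Ivl, Flg, Sprr1b, Lce1b, Cnfn, Trp63, Cdh3, Vim, Col1a2, Pdgfra, Isg15, Cdkn1a, Cdkn2a, Dlk1, Mest, Uhrf1 and Zeb2 were named after their values were seen. Krt6a and Krt6b were also named outside the rule. Promoter windows came from RefSeq (GRCm38.p6), without chromosome 18. Alternatives were other pseudocounts, filters, scalings, array weights, blocks and left-out arrays.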

Additional observations from a re-analysis of the deposited data

Results flagged for a closer look

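The difference between OKM+EV and MEF2 EV differed from that between SKM+EV and MEF1 EV at 189 of 9358 genes, by limma's test of the difference itself. Besides Nefm (6.30), the genes with the largest excess in the OKM arm were Fgfbp1 (4.54, adjusted p = 0.00142), Col11a1 (3.95, adjusted p = 0.00344), Peg3 (3.74, adjusted p = 0.00510), Nt5e, the ecto-nucleotidase CD73 (3.71, adjusted p = 0.00344), and Tnfrsf11b, the decoy receptor osteoprotegerin (3.51, adjusted p = 0.00344), where values are differences of log2 differences. Fgfbp1 was higher with the factors in both arms, at 1729 and 1571 in SKM+EV against 334 and 374 in MEF1 EV. Col11a1 and Peg3 differed from MEF1 EV by -1.81 and -1.65 in the SKM arm, against 2.14 and 2.09 in the OKM arm.

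On the other side, besides Csf1r (-5.70), were Fcgr3 (-5.41, adjusted p = 0.0298), Sstr5 (-5.38, adjusted p = 0.00344), Gpnmb, a glycoprotein of macrophage lysosomes (-4.99, adjusted p = 0.00482), the leukocyte tetraspanin Cd53 (-4.81, adjusted p = 0.00515) and the myeloid receptor Cd300lb (-4.76, adjusted p = 0.00344). For these 6 genes the SKM arm's own log2 differences lay between -0.27 and 0.87, and the MEF2 EV arrays were the high ones.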

How the results depend on the processing

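The 659 called genes became 4835 with the spread from all 49 arrays, 6167 with the replicate block, 3416 with array weights and 5567 with weights from a gene-by-gene method, and 0 to 5585 when an array was left out. The default array weights did not converge and gave OKM+EV array 2 a weight of 0.0126 beside 4.45 for array 1. The gene-by-gene weights, 0.124 for array 3 and 4.56 for array 2, were added after that was seen. Other pseudocounts, a filter on mean intensity, quantile normalization, centring, no trend and the mean over probes gave 629 to 680. The number of fallen macrophage genes was 25 to 33 in every alternative except without a MEF2 EV array (range over left-out arrays 0 to 33), where the lone array is assumed to vary like the OKM+EV arrays. The 24 largest rises and falls kept their direction throughout and passed in all alternatives except without MEF2 EV array 1 (0 passed) or 2 (1 passed). Pou5f1 reversed with the block (-0.48), the array weights (-0.24 and -0.47) and without array 3 (-0.48 to 0.37 over the left-out arrays), and Vim was 0.013 with the gene-by-gene weights. Neither Flg (-0.57 to 0.052) nor Cnfn (-0.66 to 0.68) kept its sign over the left-out arrays.

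The replicate numbers are shared only by number: the differences between arrays 1 and 2 of OKM+EV and of MEF2 EV correlated at 0.17, and array 3 has no partner, so the block leaves array 3 out of the estimate. For the difference between the arms, 189 genes became 2402 with 49 arrays, 3533 with the replicate block and 34 to 2538 with an array left out.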
